A study of Bos taurus with 12 samples.

Results

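Solute carriers are the membrane proteins that move amino acids, sugars, ions, metals, vitamins and other small molecules across cell membranes. Their transcripts were followed in day 16 bovine conceptuses and in cultured donor fibroblasts. All genes whose array symbol has the form SLC, a family number, the letter A and a member number were taken, except those of the SLC25 family (carriers of the mitochondrion) and the SLC27 family (fatty acid transport proteins). This gave 131 of the 9155 genes named by a single symbol, measured by 186 of the 24016 probe sets. Where several probe sets stood for a gene (36 genes, up to 4 probe sets each), the one with the highest mean over the 12 arrays represented it. Of the 131 genes, 101 are known mainly from the plasma membrane and 30 from membranes inside the cell, such as the SLC35 carriers of the Golgi apparatus, so the set is wider than plasma membrane transport. Other transporter families, such as ABC pumps and aquaporins, lie outside it.

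Day 7 blastocysts of 3 origins had been placed in synchronized recipient cows, and conceptuses of comparable length were recovered on day 16. The AI group derived from artificial insemination, with embryos formed in vivo. The IVP group derived from in vitro fertilization and culture. The SCNT group was cloned by somatic cell nuclear transfer, where the nucleus of a body cell takes the place of the oocyte's own. FB arrays hold RNA of the fibroblasts that served as nuclear donors, although their tissue label reads elongated embryo. RNA came from 10 mg of conceptus tissue or from cultured cells and was hybridized to the Affymetrix bovine genome array, with 3 arrays in each group. The genotype of the animals, the number of donor cell lines and whether the arrays of a group stand for separate animals or pools are not stated in the labels. P-values therefore rest on the spread among arrays within groups, pooled over all groups of a fit, part of which may be technical.

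Before attachment the ruminant conceptus takes its nutrients from the uterine fluid, and the trophectoderm is its absorbing surface. Cationic and neutral amino acids carried by the SLC1, SLC7 and SLC38 families feed protein synthesis, polyamine synthesis and mTORC1 signalling in the elongating trophectoderm. Hexoses enter by facilitated carriers of the SLC2 family and by sodium-coupled carriers of the SLC5 family, and lactate crosses by proton-coupled carriers of the SLC16 family. Ruminant trophoblast is also known for converting glucose to fructose through the polyol pathway. Many of these carriers draw on the sodium gradient built by the sodium and potassium pump, and several need a partner protein to reach the cell surface.

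The deposited values are log2 signals, which ran from 2.42 to 13.66, and 36.8% of them lay within 0.01 of the lowest. A level of log2 4 was taken as the floor below which a signal was not read as present. A level is compared here only between arrays for the same probe set, never between genes. The labels were checked against markers. Of 15 trophoblast genes measured, 12 lay above the floor on every array of each conceptus group and 0 did so in FB. Of 11 fibroblast genes, 9 lay above it on every FB array, against 3 in each conceptus group (FN1, THY1 and TAGLN). COL1A1, COL1A2, COL3A1, VIM, LUM and DCN lay below it on every conceptus array. THY1 went against its label, at 2.78 to 3.28 on FB arrays and 4.06 to 5.32 on conceptus arrays. Markers of other cell types were above the floor on FB arrays alone. They were TTR (hypoblast, 6.57 to 6.89), LAPTM5 (leukocyte, 5.81 to 6.07) and SPP1 (uterine epithelium, 11.23 to 11.48). Of 9 uterine epithelium genes, CST6 alone was above the floor on any conceptus array. The trophoblast genes KRT8, ELF5 and CSH2 lay below it on every array. PDGFRB lay below the floor on every array. Among epiblast genes, POU5F1 and SOX2 were near the lowest values throughout, and CRIPTO was above the floor on the IVP and SCNT arrays alone. Control probe sets for spiked-in RNA averaged log2 8.57 to 8.61 on AI 2, IVP 2 and IVP 3, and 7.33 to 8.08 on the other 9 arrays, so counts are also given without those 3 arrays. The 3' probe set of GAPDH exceeded its 5' probe set by 0.21 to 0.38 log2 units on AI arrays, 0.35 to 0.89 on IVP arrays, with the highest value on IVP 3, 0.28 to 0.45 on SCNT arrays and 0.01 to 0.06 on FB arrays. This sign of RNA quality differed between the groups, and its part in the carrier results was not tested.

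Of the 131 carrier genes, 61 lay above the floor on at least 1 array, 25 did so on all 12 arrays and 43 on all 9 conceptus arrays, while 70 did so on none. Each conceptus array had 47 to 52 of them above the floor and each FB array 32 or 33. Of all 24016 probe sets, 6359 to 6643 (26.5% to 27.7%) lay above it on an array. Carriers are counted by their brightest probe set, so the shares are not directly comparable. Counts by substrate are given beside the 61 of 131 for all carriers. Several groups hold few genes, and differences between them were not tested. All 5 carriers of nucleotide sugars and both peptide carriers were above it somewhere, as were 15 of 21 metal carriers, 12 of 23 amino acid carriers and 3 of 5 carboxylate carriers. Among ion carriers the figure was 7 of 22, among sugar carriers 5 of 14, among carriers of vitamins and choline 4 of 8, and among carriers of organic ions and bile acids 4 of 14. One of 4 nucleoside carriers (SLC29A1) was above it, and none of 7 carriers of amines and osmolytes. Several carriers of interest for the conceptus and placenta stayed below the floor on every array. They were SLC7A1, the main cationic amino acid carrier of many cells, SLC1A1 (glutamate), SLC6A6 (taurine), SLC6A14 (neutral and cationic amino acids), SLC3A1, SLC2A8 (hexoses), SLC5A11 (inositol), SLC19A1 (folate), SLC23A2 (ascorbate), SLC30A1 (zinc export) and SLC34A2 (phosphate). A value below the floor on a 3' array sets only an upper bound on the signal of that probe set.

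**Figure D1:**
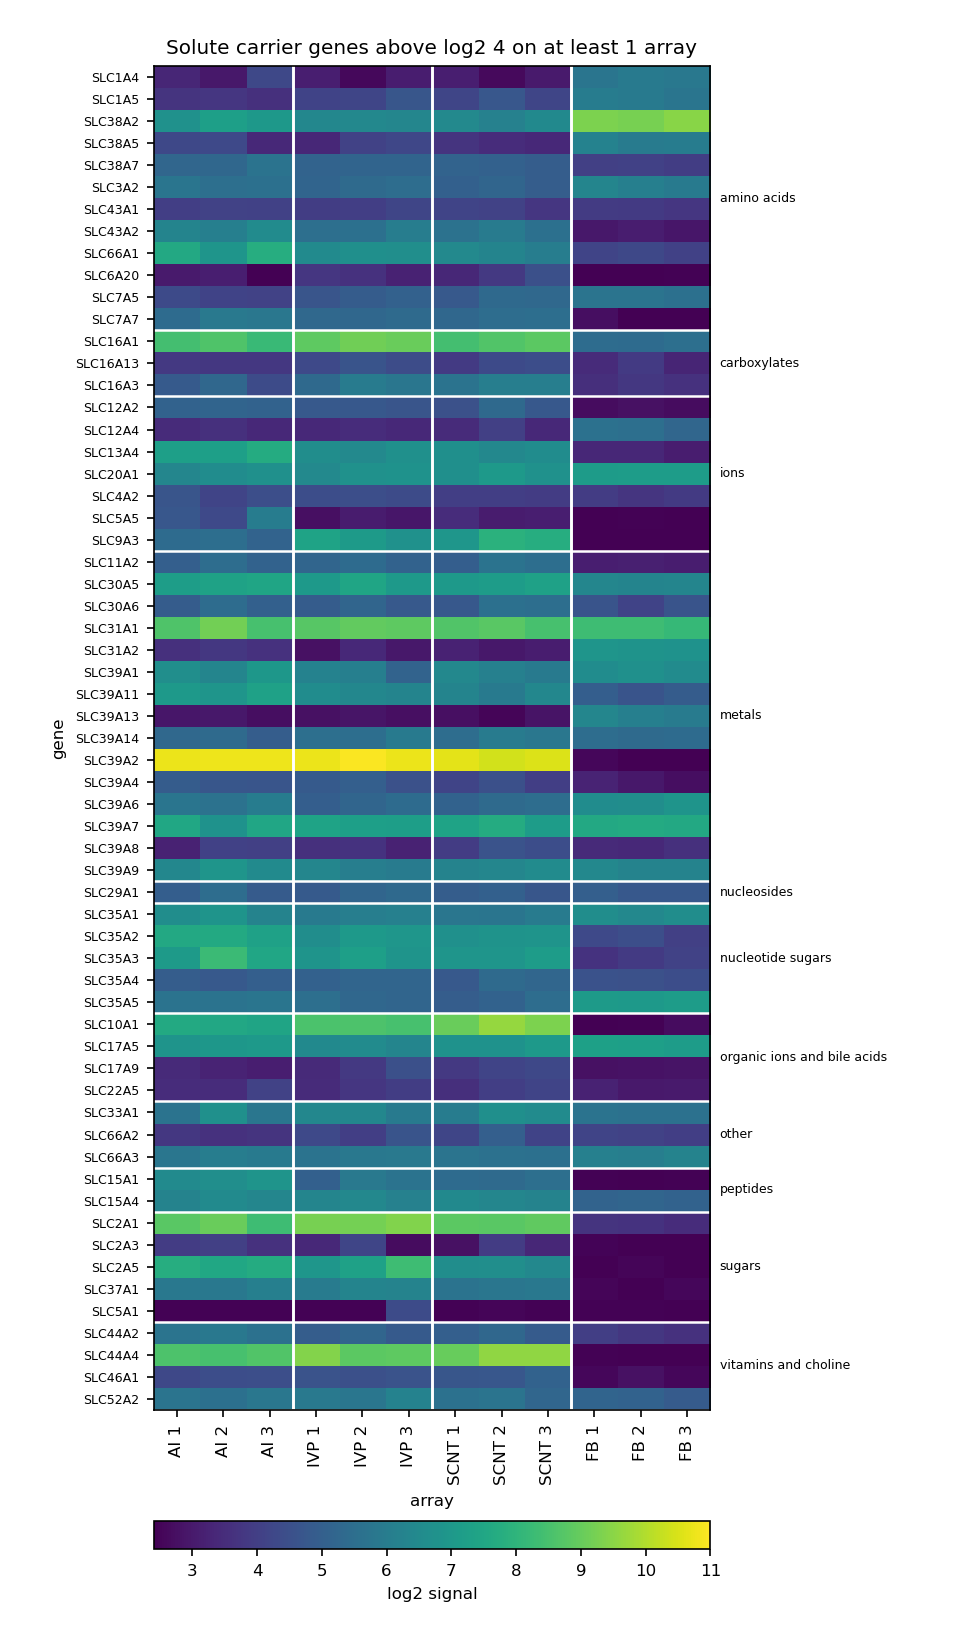
Log2 signal (colour) of the 61 solute carrier genes above log2 4 on at least 1 array, in rows by substrate, on the 12 arrays in columns. SLC39A2 is bright on all 9 conceptus arrays and dark on the 3 FB arrays, and SLC9A3 and SLC10A1 are brighter on the IVP and SCNT arrays than on the AI arrays.

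Production method was compared among the conceptuses first. A gene was tested where its probe set lay above the floor on at least 3 of the 9 conceptus arrays, which 53 of the 131 carriers did. An adjusted p under 0.05 in limma's moderated test, adjusted over all 6892 probe sets tested, was taken as a change. In SCNT against AI, 10 of the 53 were higher (18.9%) and 15 lower (28.3%), where 16.2% of all tested probe sets were higher and 11.4% lower. Over the 4347 genes tested by their brightest probe set, as the carriers were, these shares were 17.6% and 10.6%. The median difference of the 53 was -0.18 log2 units against 0.08 for all tested probe sets. In IVP against AI, 8 were higher (15.1%) and 11 lower (20.8%), where 8.42% of all tested probe sets were higher and 9.49% lower. The medians were -0.07 and 0.02. Counted by gene, the shares were 9.48% higher and 8.17% lower. Whether the carriers differ from these shares was not tested. Both comparisons share the AI arrays, so their values are set side by side below without being read as independent. In 7 of the 53 (SLC1A5, SLC38A5, SLC16A13, SLC5A5, SLC39A8, SLC17A9 and SLC66A2) a whole conceptus group lay below the floor, so they passed the filter through the groups where they were brighter. The direction of a difference from that group was set by the filter, so the counts and medians describe the carriers that passed. In bulk samples, fewer cells of a type and less RNA per cell cannot be told apart.

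These counts depended on single arrays. In SCNT against AI the number higher fell to 6 without AI 1, to 5 without AI 3, to 4 without SCNT 2 and to 6 without SCNT 3, and it was 6 without the 3 arrays of high spike signal. The number lower stayed between 10 and 13 whichever array was left out. In IVP against AI the number higher fell to 3 without AI 1, to 5 without AI 2, to 2 without AI 3, and to 3 without IVP 2 or IVP 3. The number lower in that comparison fell to 7 without AI 1, to 5 without AI 3, to 6 without IVP 1 and to 7 without IVP 3. Without the 3 arrays of high spike signal, which leaves 1 IVP array whose spread is taken to be that of the other groups, it found 1 carrier higher and 4 lower. Of the 19 calls on named carriers in IVP against AI, 14 ended without those 3 arrays, 1 (SLC5A5) was no longer tested and 4 were kept (SLC9A3, SLC15A1, SLC35A2 and SLC66A1). Of the 25 in SCNT against AI, 6 ended (SLC35A5, SLC38A2, SLC39A14, SLC39A4, SLC46A1 and SLC66A2), 2 (SLC17A9 and SLC5A5) were no longer tested and 17 were kept. With no filter on dim probe sets, 16 of the 25 calls in SCNT against AI and 17 of the 19 in IVP against AI ended. That loss is given below for some carriers only.

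Some markers of trophoblast and of other cell types also differed from the AI group and are given beside these counts. Of 12 trophoblast genes tested, 3 were higher and 2 lower in SCNT against AI. In IVP against AI, 3 of the 12 were higher and 4 lower. Shares of all tested probe sets were 16.2% higher and 11.4% lower in SCNT, and 8.42% and 9.49% in IVP. The summed signal of 10 hypoblast genes was 3731 to 5321 on AI arrays, 4219 to 5009 on IVP arrays and 3084 to 3970 on SCNT arrays, most of it from APOA1. Of 5 hypoblast genes tested, 3 were lower in SCNT against AI (RBP4, APOA2 and FGG) and 2 in IVP against AI (RBP4 and FGG), while GATA6 and APOA1 were not called. RBP4, a retinol carrier, read 7.18, 7.32 and 6.97 in AI, 6.15, 6.67 and 6.19 in IVP and 5.05, 6.03 and 5.94 in SCNT (adjusted p = 0.046 in IVP and 0.0022 in SCNT). FGG, a fibrinogen chain, read 5.79, 6.11 and 3.72 in AI, 2.99 to 4.10 in IVP and at most 2.62 in SCNT. HNF4A and TTR were near the lowest values on every conceptus array. The sum of 11 leukocyte genes was 295 to 599 on AI arrays, 62.8 to 107 on IVP arrays and 65.6 to 89.1 on SCNT arrays. Of these genes ITGB2 alone was above the floor on every AI array (7.91 to 9.07), and PTPRC, CD3E, CD79A and TYROBP were near the lowest values. The sum of 7 red blood cell genes was 101 to 264 on AI arrays and 37.6 to 38.9 on IVP and SCNT arrays, carried by ALAS2, with the hemoglobin genes near the lowest values. The part of these markers in the carrier results was not tested. The leukocyte carrier SLC11A1 and the red cell anion exchanger SLC4A1 were below the floor on every array.

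**Figure D2:**
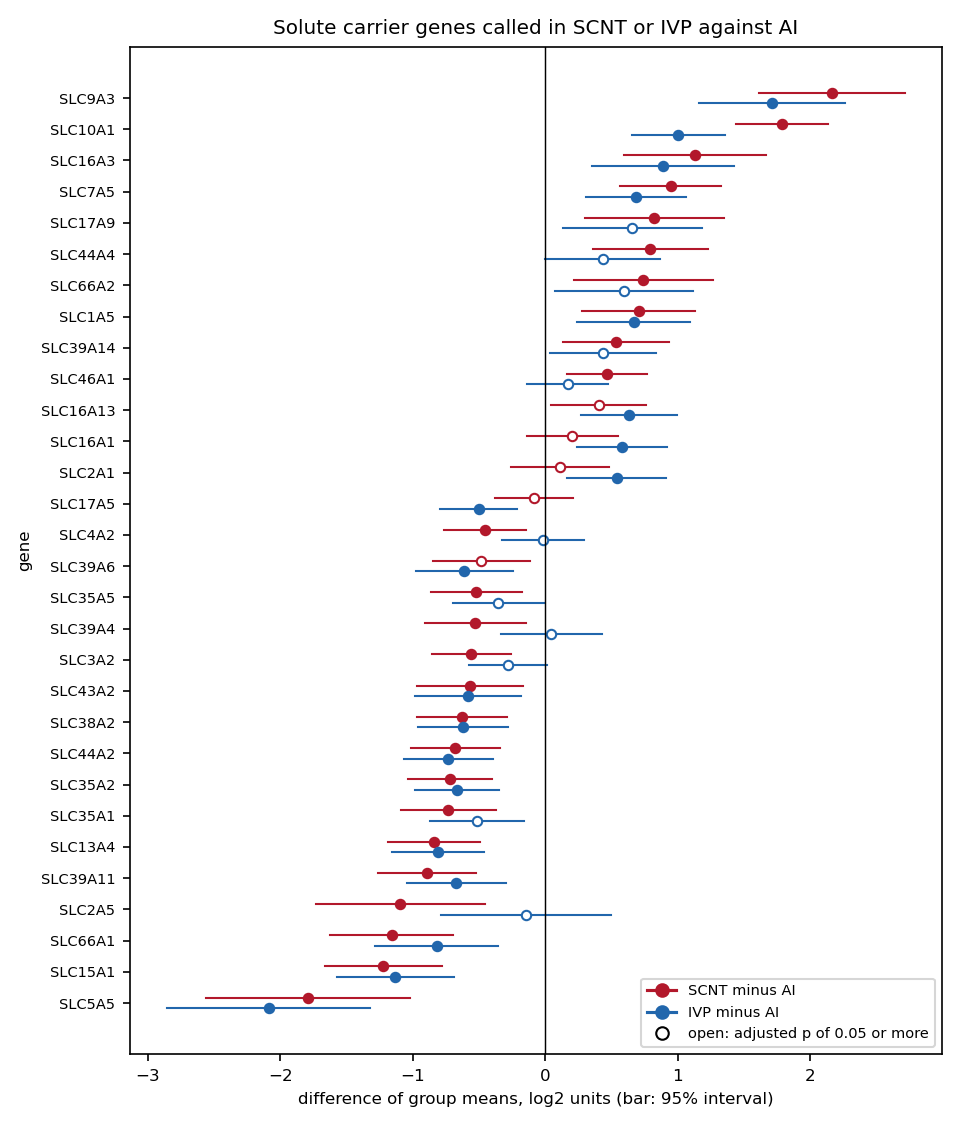
Difference of group means in log2 units (points) with 95% intervals (bars) for the 30 carriers called in SCNT against AI (red) or IVP against AI (blue), with open points for an adjusted p of 0.05 or more. SLC9A3 and SLC10A1 have the largest rises in both comparisons, and SLC15A1 fell by over 1 log2 unit in both. For SLC5A5 the IVP and SCNT means lie below log2 4, so its plotted difference is no measured size.

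Amino acid carriers changed in both directions. Of 10 tested, 2 were higher and 4 lower in SCNT against AI, beside 16.2% and 11.4% of all tested probe sets. In IVP against AI 2 were higher and 3 lower, beside 8.42% and 9.49%. These counts and those by substrate below cover few genes and were not tested as groups. SLC7A5, the catalytic chain of the large neutral amino acid exchanger LAT1, read 4.32, 4.14 and 4.11 on the AI arrays, 4.67, 4.91 and 5.06 on the IVP arrays and 4.79, 5.33 and 5.30 on the SCNT arrays. Every IVP and SCNT value lay above every AI value. The rise was 0.95 ± 0.17 (SE) log2 units in SCNT, or 1.93-fold with a 95% interval of 1.48 to 2.51 (adjusted p = 0.00317), and 0.69 ± 0.17 in IVP (adjusted p = 0.0207). The IVP call was lost without AI 2, AI 3, IVP 2 or IVP 3 (adjusted p up to 0.0715), while the SCNT call was kept in all 16 refits.

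SLC3A2, the heavy chain that brings SLC7A5 and SLC7A7 to the cell surface, moved the other way. Its signal was 5.74, 5.55 and 5.56 in AI, 5.17, 5.37 and 5.48 in IVP and 5.03, 5.20 and 4.95 in SCNT. The SCNT arrays did not overlap the AI arrays, and the fall was -0.56 ± 0.13 (SE), or 1.47-fold (adjusted p = 0.0119), also kept in all refits. The difference in IVP was -0.28 ± 0.13 (adjusted p = 0.175). SLC7A7, the light chain that exchanges cationic for neutral amino acids, differed by -0.29 in SCNT (adjusted p = 0.172) and -0.38 in IVP (adjusted p = 0.103). Without AI 1 the latter was -0.53 and passed the test.

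SLC1A5, the sodium-dependent exchanger of glutamine and other small neutral amino acids, was near the floor. It read 3.68, 3.76 and 3.59 in AI, 4.14, 4.19 and 4.71 in IVP and 4.20, 4.74 and 4.20 in SCNT. No AI array was above the floor and every IVP and SCNT array was, a rise of at least 1.30-fold in SCNT (adjusted p = 0.0207) and at least 1.27-fold in IVP (adjusted p = 0.0357). Among conceptuses it passed the filter through IVP and SCNT arrays alone. It could therefore differ from AI in this direction alone, and these p-values support nothing further. The SCNT call was lost without AI 1, AI 3 or SCNT 2 (adjusted p up to 0.0845) and the IVP call without any 1 AI array or IVP 3 (adjusted p up to 0.116).

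SLC38A2, the sodium-coupled carrier of small neutral amino acids known to respond to amino acid supply, read 6.75, 7.26 and 7.00 in AI, 6.39, 6.43 and 6.33 in IVP and 6.45, 6.17 and 6.49 in SCNT. All 6 IVP and SCNT values lay below the lowest AI value. It fell by 0.63 log2 units in SCNT (SE 0.15, 1.55-fold, adjusted p = 0.0127) and by 0.62 in IVP (SE 0.15, 1.53-fold, adjusted p = 0.0203). Without SCNT 2 the first call was lost (adjusted p = 0.0586), and the second without AI 2, AI 3, IVP 1 or IVP 3 (adjusted p up to 0.0586).

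SLC66A1, which exports cationic amino acids from lysosomes, had the largest fall among the amino acid carriers. Its arrays read 7.60, 6.89 and 7.77 in AI, 6.50, 6.67 and 6.64 in IVP and 6.44, 6.29 and 6.06 in SCNT. The 3 groups did not overlap. The fall was -1.16 ± 0.21 (SE) in SCNT, or 2.23-fold with an interval of 1.62 to 3.08 (adjusted p = 0.00316), kept in all refits. In IVP it was -0.82 ± 0.21, or 1.76-fold (adjusted p = 0.0227), and that call was lost without AI 1, AI 3, IVP 1 or IVP 3 (adjusted p up to 0.0832).

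SLC43A2, a facilitated carrier of large neutral amino acids, read 6.27, 6.10 and 6.54 in AI, 5.55, 5.58 and 6.04 in IVP and 5.64, 5.98 and 5.59 in SCNT. It fell by 0.57 in SCNT (SE 0.18, adjusted p = 0.0389) and by 0.58 in IVP (SE 0.18, adjusted p = 0.0482). The AI arrays lay above those of both other groups, which overlapped each other. Both calls were close to the threshold and were lost without AI 1 or AI 3, without SCNT 1 or SCNT 3, and without IVP 1 or IVP 2 (adjusted p up to 0.155). The lysosomal glutamine carrier SLC38A7 (-0.34 and -0.21) and SLC43A1 (-0.04 and 0.01) did not pass the test in SCNT or IVP, nor did SLC38A5, whose 3 conceptus means all lay below the floor.

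**Figure D3:**
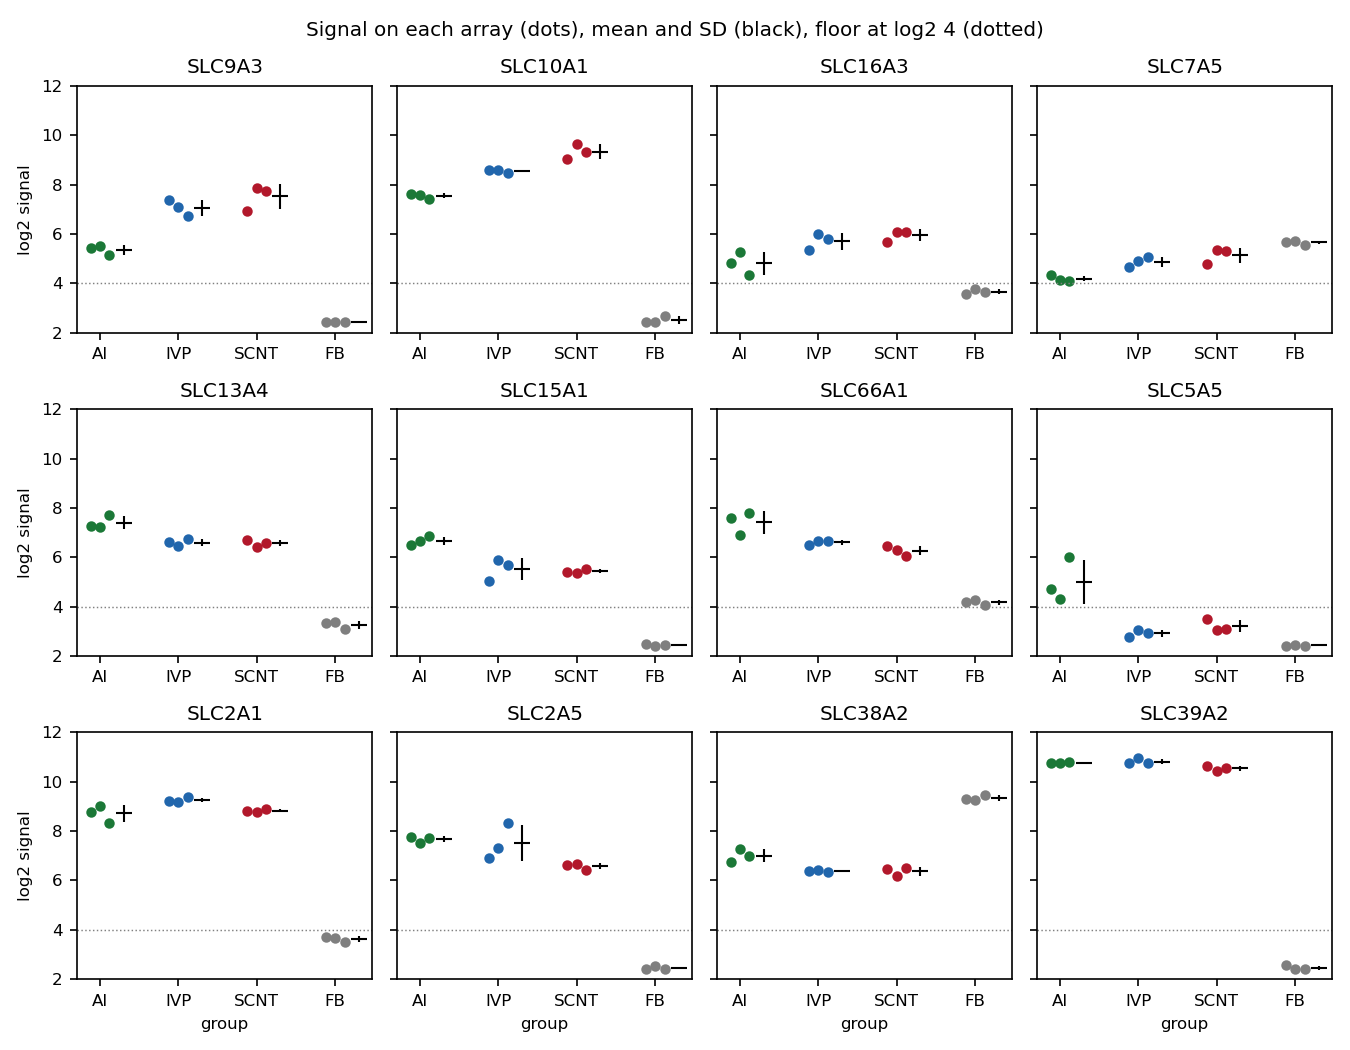
Log2 signal on each array (dots) with the mean and SD of each group (black cross, 3 arrays each) for 12 carriers in AI, IVP, SCNT and FB, and the floor of log2 4 (dotted line). For SLC9A3, SLC10A1 and SLC7A5 every IVP and SCNT dot lies above every AI dot, and for SLC13A4, SLC15A1 and SLC5A5 every one lies below.

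The peptide carrier SLC15A1, which takes up di- and tripeptides with protons and is best known from the intestinal brush border, was lower after both in vitro procedures. Its signal was 6.51, 6.64 and 6.84 in AI, 5.04, 5.88 and 5.67 in IVP and 5.42, 5.38 and 5.53 in SCNT. The lowest AI value lay above the highest IVP and SCNT values. The fall was -1.22 ± 0.20 (SE) in SCNT, or 2.33-fold with an interval of 1.72 to 3.17 (adjusted p = 0.00189), and -1.13 ± 0.20 in IVP, or 2.19-fold with an interval of 1.61 to 2.97 (adjusted p = 0.00401). No single array ended either call, but the IVP call was lost without the filter on dim probe sets (adjusted p = 0.0597). SLC15A4, a peptide and histidine carrier of lysosomes and endosomes, read 6.16 to 6.50 on all conceptus arrays and differed by -0.01 in SCNT (adjusted p = 0.961) and -0.07 in IVP (adjusted p = 0.74).

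Sugar carriers above the floor on all conceptus arrays were SLC2A1, SLC2A5 and SLC37A1. SLC2A1, the common facilitated glucose carrier GLUT1, read 8.79, 9.03 and 8.34 in AI, 9.23, 9.19 and 9.36 in IVP and 8.83, 8.78 and 8.89 in SCNT. The IVP arrays were the highest, and the SCNT arrays lay within the AI range. The rise in IVP was 0.54 ± 0.17 (SE), or 1.45-fold (adjusted p = 0.0486), and the difference in SCNT was 0.11 ± 0.17 (adjusted p = 0.652). Leaving out AI 1, AI 3 or 1 of the IVP arrays ended the IVP call (highest adjusted p 0.15), as did centring each array on its median. Without AI 3 the difference was 0.35.

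SLC2A5, the fructose carrier GLUT5, read 7.77, 7.53 and 7.71 in AI, 6.91, 7.32 and 8.34 in IVP and 6.63, 6.67 and 6.43 in SCNT. The SCNT arrays were all below the AI and IVP arrays, whereas the IVP arrays reached both below and above the AI range. It fell in SCNT by 1.09 log2 units (SE 0.29, 2.13-fold with an interval of 1.37 to 3.32, adjusted p = 0.0184), and its second tested probe set was also lower (-0.80). The call was lost without AI 1 or SCNT 3 (adjusted p up to 0.0593) and without the filter on dim probe sets (adjusted p = 0.168). In IVP the difference was -0.14 ± 0.29 (adjusted p = 0.763), and it passed the test once AI 2, IVP 2 and IVP 3 were left out. SLC37A1, a glucose 6-phosphate carrier of the endoplasmic reticulum, differed by -0.17 in SCNT and 0.24 in IVP and was not called.

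The remaining sugar carriers were at or under the floor. SLC2A3, the high-affinity glucose carrier GLUT3, read 3.64 to 4.04 in AI, 2.68 to 4.21 in IVP and 2.80 to 3.92 in SCNT, too close to the floor to be tested. SLC5A1, the sodium-coupled glucose carrier SGLT1, was above the floor on IVP 3 alone (4.35) and between 2.44 and 2.52 on the other 8 conceptus arrays.

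All 3 carboxylate carriers tested were higher in IVP than in AI, beside 8.42% of all tested probe sets. In SCNT 1 of them was called higher, beside 16.2%. SLC16A3, the lactate exporter MCT4, read 4.82, 5.27 and 4.35 in AI, 5.34, 5.98 and 5.79 in IVP and 5.67, 6.08 and 6.09 in SCNT. The highest AI array lay just below the lowest IVP array. The rise was 1.14 ± 0.24 (SE) in SCNT, or 2.20-fold with an interval of 1.51 to 3.19 (adjusted p = 0.00675), and 0.89 ± 0.24 in IVP, or 1.85-fold (adjusted p = 0.0296). The IVP call was lost without AI 1, AI 3, IVP 2 or IVP 3 (adjusted p up to 0.101), and no single array ended the SCNT call. The SCNT call was lost without the filter on dim probe sets (adjusted p = 0.0857).

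SLC16A1, the monocarboxylate carrier MCT1, read 8.44, 8.64 and 8.22 in AI, 8.88, 9.15 and 9.02 in IVP and 8.44, 8.67 and 8.82 in SCNT. Only the IVP arrays were separate from the AI arrays, with a rise of 0.58 ± 0.15 (SE), or 1.50-fold (adjusted p = 0.0259). Leaving out AI 1, AI 3, IVP 2 or IVP 3 ended that call (adjusted p up to 0.0981). The SCNT difference was 0.21 ± 0.15 (adjusted p = 0.344). SLC16A13, a less studied member of the family, rose at least 1.36-fold in IVP (adjusted p = 0.0229) from an AI mean of 3.81 ± 0.02 (SD), and this call was lost without any 1 AI array or IVP 2 (adjusted p up to 0.0718). It had no AI array above the floor, so it could differ from AI in this direction alone. In SCNT it was not called (adjusted p = 0.0887) but passed without SCNT 1.

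Of 6 ion carriers tested, 1 was higher and 3 lower in SCNT against AI, beside 16.2% and 11.4% of all tested probe sets. In IVP against AI 1 was higher and 2 lower, beside 8.42% and 9.49%. SLC9A3, the apical sodium and proton exchanger NHE3, read 5.42, 5.51 and 5.14 in AI, 7.38, 7.08 and 6.74 in IVP and 6.93, 7.88 and 7.75 in SCNT. Every IVP and SCNT array was above log2 6.7 and every AI array below 5.6. It rose by 2.17 log2 units in SCNT (SE 0.25, 4.49-fold with an interval of 3.06 to 6.58, adjusted p = 0.00025) and by 1.71 in IVP (SE 0.25, 3.28-fold with an interval of 2.23 to 4.81, adjusted p = 0.0015). It was the only carrier whose call was kept in every refit of both comparisons.

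SLC5A5, the sodium and iodide symporter, was above the floor in AI alone. It read 4.720, 4.288 and 6.004 in AI, 2.766, 3.065 and 2.917 in IVP and 3.478, 3.058 and 3.109 in SCNT. The AI arrays varied widely, with an SD of 0.89, yet the lowest of them was above all others. The signal was at least 2.01-fold higher in AI than in SCNT (adjusted p = 0.00442) and than in IVP (adjusted p = 0.00302). It passed the filter through the AI arrays alone, so it could differ in this direction alone. When any 1 AI array was left out, it was no longer tested.

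SLC13A4, a sodium-coupled sulfate carrier, read 7.26, 7.24 and 7.71 in AI, 6.62, 6.44 and 6.73 in IVP and 6.69, 6.43 and 6.57 in SCNT. All 6 IVP and SCNT values were below the AI values. It fell by 0.84 in SCNT (SE 0.16, 1.79-fold, adjusted p = 0.00378) and by 0.81 in IVP (SE 0.16, 1.75-fold, adjusted p = 0.00658). The IVP call was lost without the 3 arrays of high spike signal (adjusted p = 0.0724) and without the filter on dim probe sets (adjusted p = 0.0546). Of its 3 tested probe sets, 2 were lower in SCNT and 3 in IVP, with differences down to -1.50. SLC4A2, a chloride and bicarbonate exchanger, read 4.658, 4.172 and 4.460 in AI and 3.981, 4.001 and 3.944 in SCNT, a fall of at least 1.35-fold (adjusted p = 0.0337). That call was lost without AI 1, AI 3 or any 1 SCNT array (adjusted p up to 0.121), and SLC4A2 differed by -0.02 in IVP.

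SLC12A2, the sodium, potassium and chloride cotransporter NKCC1, was not called in SCNT (-0.24, adjusted p = 0.358) or in IVP (-0.38, adjusted p = 0.183). Without SCNT 2, whose value of 5.35 stood above 4.52 and 4.76 on the other SCNT arrays, its difference in SCNT was -0.48 and passed. The phosphate carrier SLC20A1 differed by 0.27 in SCNT (adjusted p = 0.205) and 0.13 in IVP (adjusted p = 0.602).

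Most metal carriers did not pass the test. Of 13 tested, 1 was higher and 2 lower in SCNT against AI, beside 16.2% and 11.4% of all tested probe sets. In IVP against AI 0 were higher and 2 lower, beside 8.42% and 9.49%. SLC39A2, a zinc importer, read 10.75 to 10.79 in AI, 10.75 to 10.95 in IVP and 10.43 to 10.64 in SCNT. Its difference was -0.23 in SCNT (adjusted p = 0.169) and 0.05 in IVP (adjusted p = 0.821). SLC39A11, a zinc carrier of inner membranes, read 7.04, 6.87 and 7.34 in AI, 6.60, 6.37 and 6.27 in IVP and 6.27, 5.94 and 6.37 in SCNT. None of the IVP and SCNT values reached the AI range, and it fell by 0.89 in SCNT (SE 0.17, 1.85-fold, adjusted p = 0.00385) and by 0.67 in IVP (SE 0.17, 1.59-fold, adjusted p = 0.0205). The IVP call was lost without AI 1, AI 3, IVP 2 or IVP 3 (adjusted p up to 0.0781).

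The smaller changes among metal carriers rested on single arrays. SLC39A4, the zinc importer of the gut, had means of 4.74 ± 0.13 (SD) in AI and 4.22 ± 0.27 in SCNT and fell by 0.53 (adjusted p = 0.0437), a call lost without any 1 AI array, SCNT 1 or SCNT 3 (adjusted p up to 0.141). SLC39A14, a carrier of zinc and non-transferrin iron, rose by 0.54 in SCNT (adjusted p = 0.0485). This call was lost without any 1 AI array, SCNT 2 or SCNT 3 (adjusted p up to 0.17), and after quantile normalization or median centring. SLC39A6, another zinc importer, fell by 0.61 in IVP (adjusted p = 0.0287), a call lost without AI 1, AI 3, IVP 1 or IVP 2 (adjusted p up to 0.105), and was 0.48 lower in SCNT (adjusted p = 0.0524). SLC11A2, the ferrous iron carrier DMT1, differed by 0.18 and 0.04, and the copper importer SLC31A1 by -0.11 and 0.09, in SCNT and IVP.

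SLC10A1, the sodium and taurocholate cotransporter known from liver, had 3 groups that did not overlap, with AI lowest and SCNT highest. It read 7.64, 7.56 and 7.43 in AI, 8.58, 8.59 and 8.49 in IVP and 9.04, 9.66 and 9.31 in SCNT. It rose by 1.79 in SCNT (SE 0.16, 3.46-fold with an interval of 2.71 to 4.41, adjusted p = 5.93e-05) and by 1.01 in IVP (SE 0.16, 2.01-fold with an interval of 1.58 to 2.56, adjusted p = 0.00224). All 4 of its probe sets were called higher in SCNT, by 1.22 to 1.98, and 3 of 4 in IVP. Without the 3 arrays of high spike signal the IVP call was lost.

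Other carriers of organic anions moved less. SLC17A9, which loads nucleotides into vesicles, read 3.11 to 3.43 in AI and 3.82, 4.18 and 4.26 in SCNT. This was a rise of at least 1.06-fold (adjusted p = 0.0266), lost without AI 2 or AI 3 (adjusted p up to 0.0782) and no longer tested without SCNT 2 or SCNT 3. With no AI array above the floor, SLC17A9 could differ from AI in this direction alone. In IVP, where its mean was also below the floor, it was not called (adjusted p = 0.0804) but passed without IVP 1. SLC17A5, the lysosomal sialic acid exporter, fell by 0.50 in IVP (SE 0.13, 1.42-fold, adjusted p = 0.0256), a call lost without AI 1, AI 3, IVP 1 or IVP 3 (adjusted p up to 0.0919). In SCNT the SLC17A5 difference was -0.08.

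Among vitamin and choline carriers, 2 of 4 were higher and 1 lower in SCNT against AI, beside 16.2% and 11.4% of all tested probe sets. In IVP against AI 1 was lower, beside 9.49%. SLC44A4, a carrier linked to choline and thiamine pyrophosphate, read 8.60, 8.51 and 8.67 in AI, 9.41, 8.82 and 8.86 in IVP and 9.02, 9.57 and 9.57 in SCNT. Both other groups lay above the AI arrays, by 0.79 ± 0.20 (SE) in SCNT (1.73-fold, adjusted p = 0.0136) and by 0.44 ± 0.20 in IVP (adjusted p = 0.15), and the SCNT call was lost without SCNT 2 or SCNT 3 (adjusted p up to 0.0586). SLC44A2, a choline carrier, had means of 5.727 ± 0.112 (SD) in AI, 4.996 ± 0.196 in IVP and 5.048 ± 0.213 in SCNT. It fell by 0.68 in SCNT (1.60-fold, adjusted p = 0.00872) and by 0.73 in IVP (1.66-fold, adjusted p = 0.00936), and both of its tested probe sets were lower in both comparisons. The IVP call was lost without the 3 arrays of high spike signal (adjusted p = 0.0918) and without the filter on dim probe sets (adjusted p = 0.0603), and the SCNT call without that filter (adjusted p = 0.0549). SLC46A1, the proton-coupled folate carrier, rose by 0.47 in SCNT (adjusted p = 0.0295), a call that ended on leaving out SCNT 2, SCNT 3, AI 1 or AI 3 (highest adjusted p 0.101). The riboflavin carrier SLC52A2 differed by -0.18 and 0.26 and was not called.

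Carriers of nucleotide sugars supply the Golgi apparatus for glycosylation. Of 5 tested, 3 were lower in SCNT than in AI, beside 11.4% of all tested probe sets, and 1 in IVP, beside 9.49%. SLC35A2, which carries UDP-galactose, read 7.60, 7.62 and 7.31 in AI, 6.62, 7.00 and 6.91 in IVP and 6.71, 6.82 and 6.84 in SCNT. The AI arrays were all higher, and the falls were 1.65-fold in SCNT (-0.72 ± 0.14 SE, adjusted p = 0.00507) and 1.59-fold in IVP (-0.67 ± 0.14, adjusted p = 0.011). Without the filter on dim probe sets the IVP call was lost (adjusted p = 0.0573). SLC35A1, which carries CMP-sialic acid, read 6.62, 6.84 and 6.23 in AI and 5.78, 5.74 and 5.97 in SCNT, a fall of 0.73 (1.66-fold, adjusted p = 0.00802). Without that filter SLC35A1 was not called in SCNT (adjusted p = 0.0596). In IVP it was 0.51 lower (adjusted p = 0.0511), and it passed without AI 3, with a difference of -0.68.

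The other 3 members of that family were less clear. SLC35A3, which carries UDP-N-acetylglucosamine, was -0.64 in SCNT (adjusted p = 0.0852) and -0.63 in IVP (adjusted p = 0.114), with AI arrays from 7.10 to 8.25. Without AI 1, the lowest of them, the differences were -0.89 and -0.88 and passed. SLC35A5 fell by 0.52 in SCNT (adjusted p = 0.0324), a call lost without any 1 AI array, SCNT 1 or SCNT 2 (adjusted p up to 0.105). SLC35A4 was not called on its brightest probe set (0.22), while its dimmer one was higher in SCNT (0.48). Of the carriers placed in no substrate group, SLC66A2 rose at least 1.37-fold in SCNT from an AI mean of 3.71 ± 0.08 (SD) (adjusted p = 0.0393). Its call was lost without any 1 AI array or SCNT 2 (adjusted p up to 0.131). No AI array was above the floor, so SLC66A2 could differ from AI in this direction alone. SLC33A1, which brings acetyl-CoA into the endoplasmic reticulum, and SLC66A3 were not called.

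IVP and SCNT conceptuses were then compared with each other. None of the 53 carriers was called higher or lower, where 0.232% of all tested probe sets were higher and 0.348% lower in SCNT. Unadjusted, 11 of the 53 had a p under 0.05, but the share of all probe sets at that level was not taken. The interval of each difference shows what size remains possible. SLC10A1 was 0.78 ± 0.16 (SE) higher in SCNT, or 1.72-fold with an interval of 1.35 to 2.19 (adjusted p = 0.0693). It was called when all 12 arrays entered the fit and when SCNT 1 was left out, where the difference was 0.93. SLC2A5 was -0.95 (adjusted p = 0.209), with an interval of 1.24-fold to 3.01-fold lower in SCNT, and SLC2A1 was -0.43 (adjusted p = 0.315), with an interval of 1.04-fold to 1.74-fold lower. SLC37A1 was -0.41 (adjusted p = 0.269). For SLC9A3 the difference was 0.45 (adjusted p = 0.486, interval 0.934-fold to 2.01-fold).

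Donor fibroblasts were compared with each conceptus group over all 12 arrays, where 57 of the 131 carriers passed the filter and 8164 probe sets were tested. These 3 comparisons share the FB arrays. In AI against FB, 31 carriers were higher and 14 lower, beside 41.6% and 35.6% of all tested probe sets. In IVP against FB, 32 were higher and 16 lower, beside 43.0% and 35.7%, and in SCNT against FB, 34 were higher and 15 lower, beside 45.0% and 34.8%. Counted by gene, these shares were 41.5% and 34.3% in AI, 44.4% and 33.2% in IVP, and 46.0% and 33.0% in SCNT. The median difference of the 57 was 0.59, 0.64 and 0.79 log2 units, against 0.11, 0.14 and 0.20 for all tested probe sets. Of the 57, 23 had no FB array above the floor and passed the filter through conceptus arrays alone, and 2 had no conceptus array above it. The direction of these 25 was set by the filter, so the counts and medians describe the carriers that passed and support nothing further.

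The filter let through 3 of 14 sugar carriers, 2 of 2 peptide carriers and 4 of 8 carriers of vitamins and choline, and these were called higher in each conceptus group than in FB. Of them SLC2A1, SLC2A5, SLC37A1, SLC15A1, SLC44A2, SLC44A4 and SLC46A1 lay below the floor on every FB array, so they could differ in this direction alone. SLC15A4 and SLC52A2 were above it on FB arrays too and were 1.23 and 0.65 log2 units higher in AI. SLC2A1 read 3.71, 3.67 and 3.50 on the FB arrays, below the floor, and was at least 26.4-fold higher in AI, 38.3-fold in IVP and 28.5-fold in SCNT (adjusted p = 1.5e-11 for AI). SLC2A5 was at least 12.7-fold higher in AI (adjusted p = 3.2e-09) and SLC44A4 at least 24.1-fold (adjusted p = 1.13e-11), both from FB values under 2.6. SLC15A1 was at least 6.33-fold higher in AI, 2.89-fold in IVP and 2.71-fold in SCNT, from FB values of 2.42 to 2.46.

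Amino acid carriers divided by member. Of 11 tested, 4 were higher and 6 lower in each conceptus group than in FB, beside the shares of all tested probe sets given above. Of the 11, 3 had no FB array above the floor. Among carriers of neutral amino acids, SLC38A2, SLC1A4, SLC1A5 and SLC38A5 were lower in conceptuses, while others, such as SLC38A7, were higher. SLC38A2 read 9.31, 9.25 and 9.46 in FB, 5.06-fold above AI (-2.34 ± 0.13 SE, adjusted p = 8.8e-09), 7.77-fold above IVP and 7.83-fold above SCNT. SLC1A4, a carrier of alanine, serine and cysteine, read 5.76, 5.96 and 5.83 in FB and was at least 3.40-fold lower in AI. SLC1A5 was at least 3.76-fold lower in AI and SLC38A5 at least 3.68-fold lower.

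SLC7A5 was lower in conceptuses than in FB by -1.47 in AI, -0.78 in IVP and -0.52 in SCNT, and its partner SLC3A2 by -0.49, -0.77 and -1.04. Both were called in all 3 comparisons. SLC43A2, SLC66A1, SLC7A7 and SLC38A7 were the 4 amino acid carriers higher in conceptuses. In AI the rise was 3.26 for SLC66A1 and 1.36 for SLC38A7, and at least 4.94-fold for SLC43A2, which lay below the floor in FB. SLC7A7 read 2.70, 2.42 and 2.42 in FB and was above the floor on every conceptus array, at least 3.26-fold higher in AI (adjusted p = 4.91e-10). SLC43A2 and SLC7A7 lay below the floor on every FB array and passed the filter through conceptus arrays, so they could differ in this direction alone.

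Of 15 metal carriers, 7 were higher and 3 lower in AI than in FB, beside 41.6% and 35.6% of all tested probe sets. Of the 15, 4 had no FB array above the floor, SLC39A2 and SLC11A2 among them, and 2 had no conceptus array above it. These passed the filter through 1 side alone, so the counts support nothing further. SLC39A2 had the largest difference of any carrier, at least 109-fold in AI, 113-fold in IVP and 93.0-fold in SCNT, from FB values of 2.55, 2.42 and 2.42. SLC11A2 was at least 2.30-fold higher in AI and SLC39A11 4.74-fold. SLC39A13, a zinc carrier of the secretory pathway, read 6.35, 6.12 and 5.99 in FB and was below the floor on every conceptus array, at least 4.45-fold lower. The copper carrier SLC31A2 read 6.87, 6.81 and 6.79 in FB and was likewise below the floor on all conceptus arrays, at least 7.08-fold lower. These were the only carriers above the floor in FB alone, and they were no longer tested when any 1 FB array was left out.

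Among ion and bile acid carriers, SLC10A1 was at least 11.7-fold higher in AI than in FB, 23.4-fold in IVP and 40.3-fold in SCNT. SLC13A4 was at least 10.6-fold higher in AI, SLC9A3 at least 2.56-fold and SLC12A2 at least 2.17-fold. SLC10A1, SLC13A4, SLC9A3, SLC12A2 and SLC5A5 lay below the floor on every FB array, so they could differ in this direction alone. SLC12A4, the potassium and chloride cotransporter KCC1, read 5.62, 5.55 and 5.24 in FB and was at least 2.77-fold lower in AI. SLC20A1 was lower in all 3 groups, by -0.61, -0.48 and -0.34, and its SCNT call was lost without SCNT 1, SCNT 3 or any 1 FB array (adjusted p up to 0.0961). SLC5A5 was at least 2.01-fold higher in AI. Its SCNT and FB means both lay below the floor, and its SCNT call was lost when any 1 SCNT or FB array was left out (adjusted p up to 0.125).

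SLC16A1 was 7.83-fold higher in AI than in FB (adjusted p = 7.78e-10) and SLC35A2 9.47-fold (adjusted p = 5.39e-10), and SLC35A3 was at least 11.9-fold higher. SLC35A5 went the other way, with FB 2.64-fold above AI. SLC17A5 (-0.27) and SLC66A3 (-0.25) were called lower in AI by small margins. The first call was lost without AI 1, AI 2 or any 1 FB array (adjusted p up to 0.143), and the second without AI 1, AI 3 or any 1 FB array (adjusted p up to 0.183) and after quantile normalization or median centring. In SCNT against FB the SLC17A5 call (-0.35) was lost without FB 1 (adjusted p = 0.0537). Leaving out arrays 1 at a time ended no call on a named carrier in IVP against FB.

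**Figure D4:**
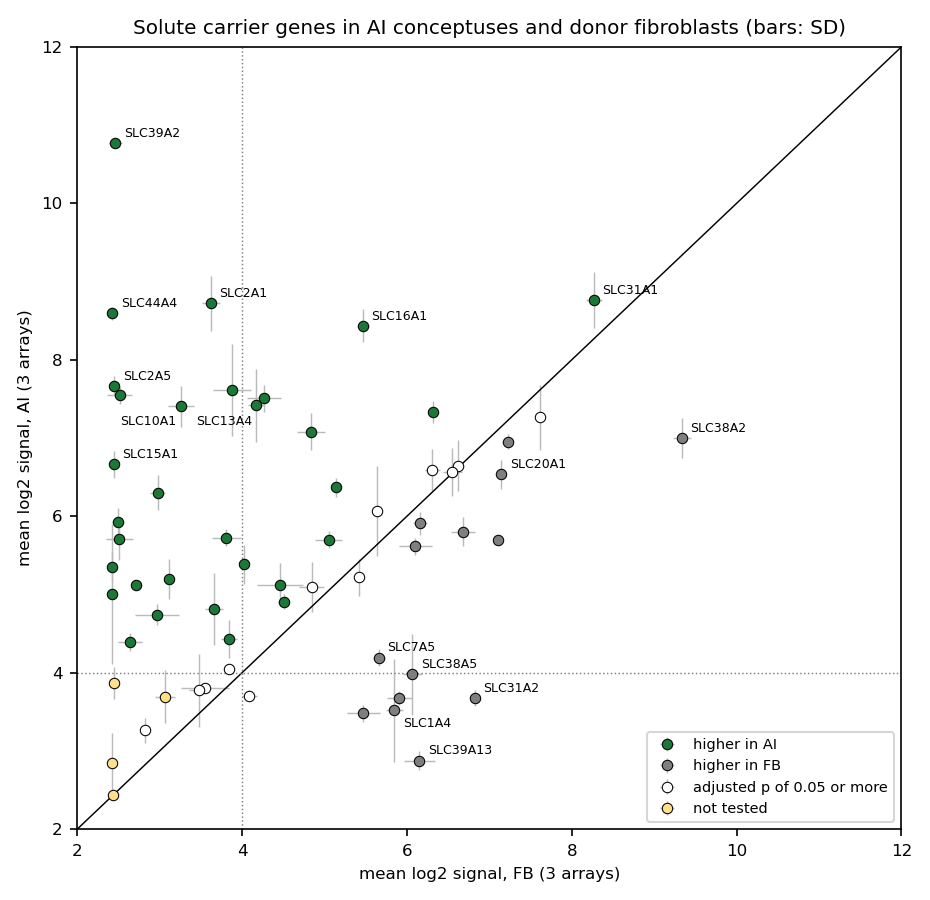
Mean log2 signal in AI conceptuses (y axis) against FB (x axis) for the 61 carriers above log2 4 on at least 1 array, with SD bars of 3 arrays each, the line of equality and the floor of log2 4 (dotted). Green points were called higher in AI, grey points higher in FB, open points were not called and yellow points were not tested. SLC39A2, SLC44A4, SLC2A1 and SLC10A1 lie far above the line, and SLC38A2, SLC31A2 and SLC39A13 lie below it.

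Genes that work with the carriers were taken from lists written with earlier results of these data known. Of 5 tested partner and scaffold genes, 2 were higher and 1 lower in SCNT against AI, and 2 were higher and 2 lower in IVP against AI. Counts on these lists, here and below, stand beside 16.2% higher and 11.4% lower of all tested probe sets in SCNT. In IVP these shares were 8.42% and 9.49%. The lists hold few genes and were not tested as groups. NHERF1, a scaffold that binds SLC9A3 and other apical carriers, rose from 5.45 ± 0.09 (SD) in AI to 7.77 ± 0.63 in IVP (adjusted p = 0.000318) and 8.25 ± 0.19 in SCNT (adjusted p = 6.66e-05), or 5.002-fold and 6.969-fold. PDZK1, a second scaffold of this kind, rose by 0.93 in IVP (adjusted p = 0.00991) and 0.79 in SCNT (adjusted p = 0.0139). BSG (basigin), which brings SLC16A1 and SLC16A3 to the cell surface, fell by 0.67 in IVP (adjusted p = 0.00539) and 0.65 in SCNT (adjusted p = 0.00412).

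Both beta subunits of the sodium and potassium pump that were tested changed in SCNT against AI. ATP1B3 rose from 8.52 ± 0.20 (SD) in AI to 10.34 ± 0.41 in IVP and 10.76 ± 0.21 in SCNT (adjusted p = 0.000356 and 6.66e-05). ATP1B1 had means of 7.63 ± 0.30 in AI, 8.14 ± 0.26 in IVP and 5.80 ± 0.18 in SCNT. It fell in SCNT against AI by 1.83 (adjusted p = 0.000127) and against IVP by 2.34 (adjusted p = 0.000402), and was not called in IVP against AI (0.51, adjusted p = 0.0866). Of 3 genes of the carbonic anhydrase family tested (CA2, CA4 and CA8), CA8 was not called in either comparison with AI. CA2 and CA4 handle bicarbonate beside the SLC4 and SLC9 exchangers. CA2 fell by 2.04 in SCNT and 1.66 in IVP. CA4, below the floor in AI, rose at least 1.66-fold in SCNT and 1.22-fold in IVP. It read 5.15, 3.95 and 3.77 in IVP, so only IVP 1 was above the floor there. No AI array was above the floor, so CA4 could differ from AI in this direction alone.

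Among genes of arginine and polyamine use, 1 of 9 was higher and 3 lower in SCNT against AI, beside 16.2% and 11.4% of all tested probe sets. In IVP against AI 0 were higher and 1 lower, beside 8.42% and 9.49%. ODC1, which makes putrescine, fell by 1.33 in SCNT (adjusted p = 0.00165) and 1.37 in IVP (adjusted p = 0.00203). GATM, which starts creatine synthesis, fell by 1.62 (adjusted p = 0.00665) and SAT1, which acetylates polyamines, by 1.42 (adjusted p = 0.0134) in SCNT. Their differences in IVP were -0.55 and -0.85 and did not pass. Of 12 genes of amino acid sensing by mTORC1, 1 was higher in SCNT (EIF4EBP1, 0.73, adjusted p = 0.0308) and 0 changed in IVP. LDHB, the lactate dehydrogenase chain that favours pyruvate, rose by 0.65 in SCNT (adjusted p = 0.00694) and 0.45 in IVP (adjusted p = 0.0464). AKR1B1, the aldose reductase of the polyol pathway, was -0.30 in SCNT (adjusted p = 0.144) and fell by 0.46 in IVP (adjusted p = 0.0472).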

How the data were processed

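The authors hybridized RNA of 12 samples in 4 groups of 3 to the Affymetrix bovine genome array. The values the authors deposited are log2 signals for 24128 probe sets, and the submitters' processing notes name GCRMA and limma. No version, and no statement on which arrays were normalized as 1 set, was found in the labels. Leaving out 112 control probe sets left 24016, of which 13292 had 1 symbol, 86 several and 10638 none in the array annotation. A current gene table matched 13263 and changed 0 symbols.

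The deposited log2 values were used as they are. A probe set had to exceed log2 4 on 3 or more arrays of the fit, and was then tested with limma 3.58.1 in R 4.3.3, 1 coefficient per group, with 6 residual degrees of freedom over the 9 conceptus arrays and 8 over all 12. The precision is set by 3 arrays a group, with a median SE of 0.16 over the conceptus arrays. Tests were two-sided, with Benjamini and Hochberg adjustment over all tested probe sets, and intervals are 95%. Where a group mean lay below log2 4, its arrays below 4 were set to 4, which makes the fold a lower bound ("at least"). The procedure was tested on simulated data.

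Named carriers were the 10 largest rises and falls without overlap per conceptus comparison, up to 3 further calls per substrate group, the 8 largest each way in AI against FB with up to 2 more per group, and 42 carriers of interest, of which 31 were on the array. A few uncalled carriers were named besides after their values were seen. Members, substrate groups and lists were chosen with earlier results of these data known. Alternatives were other filters, thresholds, normalizations, priors, sets of arrays, probe set choices, a replicate block, and leaving out carriers of inner membranes or each array in turn. The omission of AI 2, IVP 2 and IVP 3 was added after seeing the data. No sequences or coordinates were used.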

Additional observations from a re-analysis of the deposited data

How the results depend on the processing

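No call on a named carrier changed direction in any setting. Of 252 differences on named carriers, 27 changed sign in some setting, and none of these was called with the main settings. In SCNT against AI, the 10 carriers higher and 15 lower became 3 and 7 without the filter on dim probe sets, 4 and 8 at an adjusted p under 0.01, and 3 and 4 at 2-fold or more. The number higher was 6 with a filter at log2 5 and 6 without the arrays of high spike signal. Leaving out 1 array gave 4 to 11 higher and 10 to 13 lower.

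In IVP against AI, the 8 higher and 11 lower became 2 and 1 without the filter, 2 and 4 at an adjusted p under 0.01, 2 and 2 at 2-fold or more, and 1 and 4 without the arrays of high spike signal. Without carriers of inner membranes 7 were lower. Leaving out 1 array gave 2 to 8 higher and 5 to 9 lower. In SCNT against IVP, 1 carrier (SLC10A1) was higher with all arrays in the fit, and 0 to 1 when 1 array was left out.

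At 2-fold or more, 9 carriers were lower in AI and 9 in IVP against FB. Without carriers of inner membranes, 21 were higher in IVP and 22 in SCNT against FB. Leaving out 1 array gave 29 to 32, 31 to 31 and 29 to 33 higher, and 10 to 13, 14 to 16 and 11 to 15 lower, in AI, IVP and SCNT against FB. Every setting in which the carrier was still tested kept 9 of 25 named calls in SCNT against AI, 1 of 19 in IVP against AI, and 37 of 39, 41 of 41 and 38 of 41 against FB in AI, IVP and SCNT.

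With a replicate block, 8 were higher and 13 lower in SCNT against AI, and 6 and 10 in IVP against AI. Same-numbered arrays did not pair, since their deviations from the group means correlated at -0.15 to 0.15, with 2 of 9 pairs over 0.1, and 3 of 9 arrays correlated best with their own number. The cause of these shifts was not tested. The signal limits what can be seen: 70 of 131 carriers were never above log2 4, and 3 arrays a group leave a median SE of 0.16.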
